A study of Arabidopsis thaliana with 6 samples.

Results

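The jasmonate-ethylene branch of plant defence was followed here through 8 Arabidopsis thaliana genes. They are 5 plant defensin genes of the PDF1 group (PDF1.1, PDF1.2, PDF1.2b, PDF1.2c and PDF1.3), the pathogenesis-related gene PR4, and the transcription factor genes ORA59 and ERF1. The genes were taken by their locus identifiers, and each identifier matched 1 row of the deposited table, so 8 of 32594 loci are described. None of these rows merged several genes, none was an antisense locus, and no other locus of the table overlapped them. RNA came from whole seedlings of 3 genotypes, with 2 libraries each: Col-0, labelled as wild type, apc8-1 and nrpe1-12. All seedlings were 14 days old, had grown on MS plates at 22 degrees with 16 h of light and 8 h of dark, and had received no treatment, so basal levels are compared and not an induced response. APC8 belongs to the anaphase promoting complex, a ubiquitin ligase that drives the cell cycle. NRPE1 forms the core of RNA polymerase V, an enzyme of RNA-directed DNA methylation. The sources used here do not state the lesion in either allele or whether the duplicates were grown separately. The p-values therefore describe the spread between these libraries, which may be technical.

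Jasmonate and ethylene together induce ORA59 and ERF1, a pair of AP2/ERF transcription factors that activate genes with a GCC box in their promoters. Their best known targets are the PDF1.2 genes, which encode small cysteine-rich peptides that inhibit fungi, and PR4, which encodes a chitin-binding protein of the hevein type. The branch is set against a second jasmonate branch, which runs through MYC2 and serves the response to wounding and insects, and it is repressed by salicylic acid. PDF1.2 is a common reporter of the branch and is low in healthy seedlings.

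Levels are the deposited FPKM, fragment numbers scaled to transcript length and to library size. This allows a comparison between genes, but less so for a very short transcript such as PDF1.2b, where 1 fragment stood for 1.11 to 1.69 FPKM. With 222 to 233 bases taken off the transcript length, between 99.6 and 100% of low values of single-exon loci came within 0.15 of whole fragments, which gave the size of 1 fragment in each library. A level of 1 FPKM then stood for 19.15 and 14.45 fragments per kilobase of remaining length for Col-0, 15.92 and 16.41 for apc8-1, and 16.76 and 13.99 for nrpe1-12. The PDF1 transcripts are only 274 to 495 bases long, so their FPKM rest on few fragments. The targeted transcripts were not lower in the mutants: APC8 ranged from 1.29 to 1.64 FPKM (Col-0) and from 1.80 to 1.93 (apc8-1), and NRPE1 from 2.71 to 2.91 (Col-0) and from 5.94 to 6.46 (nrpe1-12). The 6 shoot markers summed to 17829 and 17961 FPKM (Col-0), 24058 and 25540 (apc8-1), and 26413 and 27865 (nrpe1-12), and all were above 0 in every library. The 10 root markers summed to 680 to 703, 391 to 433 and 502 to 548 FPKM, with 2 and 0 (Col-0), 4 and 4 (apc8-1) and 5 and 2 (nrpe1-12) of them at 0. Most of each sum came from PYK10 alone, at 659 to 683 FPKM (Col-0), 373 to 415 (apc8-1) and 486 to 529 (nrpe1-12). The root hair genes EXPA7, COBL9 and RHD6 were at 0.415 to 0.778 FPKM in Col-0 and at or below 0.267 in all mutant libraries. They were below 1 FPKM in every library and were not tested. By the test described with ORA59, 5 of 6 shoot markers were called higher in apc8-1, where 14.1% of all tested loci were, and 4 in nrpe1-12, where 13.5% were. Of the 5 root markers tested, EXPA18 and CASP1 passed the filter through Col-0 alone. Of the other 3, SCR rose and PYK10 fell in each mutant, and SHR was called in neither. Without either Col-0 library 3 shoot markers rose in apc8-1, and the root marker that rose was no longer called. The chloroplast gene rbcL was listed at 45404.5 FPKM in Col-0 replicate 2 and at 0 elsewhere, and the differences of the 8 genes without organelle and ribosomal RNA genes are given with the other settings.

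**Figure D1:**
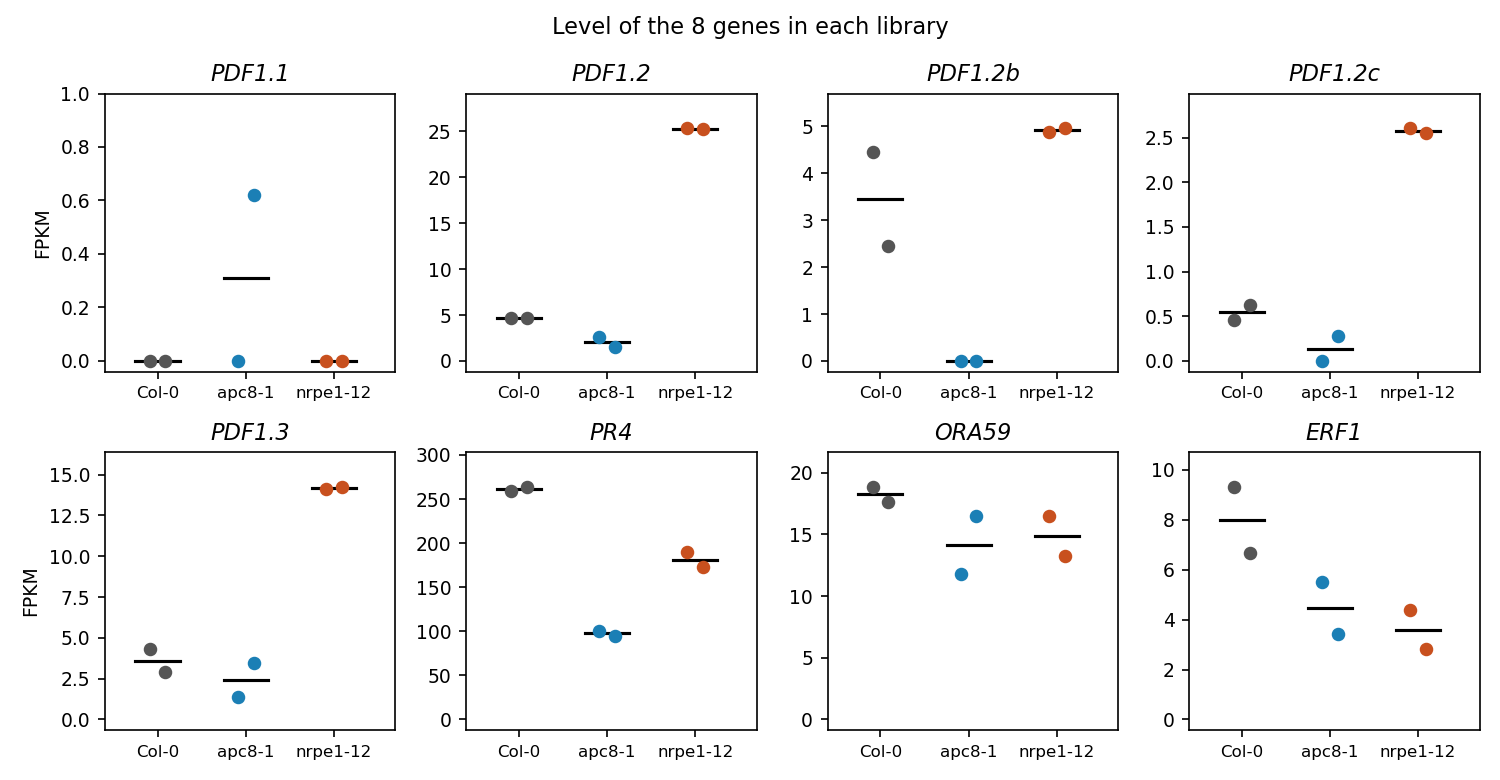
Level (FPKM, linear axes that differ between panels) of each gene in the 2 libraries of Col-0, apc8-1 and nrpe1-12; points are libraries and bars are means. PDF1.2, PDF1.2c and PDF1.3 stood highest in nrpe1-12, PR4 was lowest in apc8-1, and ORA59 lay between 11.8 and 18.8 FPKM in all libraries.

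Among the regulators, ORA59 (AT1G06160, TAIR10 chromosome 1, 1883004 to 1883934, plus strand), the factor that integrates jasmonate and ethylene signals, was at 18.8 and 17.6 FPKM (Col-0), 11.8 and 16.5 (apc8-1) and 16.5 and 13.2 (nrpe1-12). Both mutants lay below Col-0 without overlap, and they overlapped each other. Against Col-0 the difference of log2(FPKM + 1) was -0.36 for apc8-1 (SE 0.16, adjusted p = 0.118) and -0.29 for nrpe1-12 (SE 0.16, adjusted p = 0.222). Neither passed the test, which was limma across the 17802 loci that reached 1 FPKM in 2 or more libraries, with a threshold of 0.05 on the Benjamini-Hochberg adjusted p. Without apc8-1 replicate 2 the apc8-1 difference was -0.59 (adjusted p = 0.0198), and without replicate 1 it was -0.14 (adjusted p = 0.514), the lowest and highest adjusted p over all alternatives. In such a fit the lone library is assumed to vary like the other groups. The mutants were not told apart either (difference -0.08, adjusted p = 0.784). These levels rest on 130 to 254 fragments per library, and by counting error alone the ratio of nrpe1-12 to Col-0 was 0.818 (95% exact interval 0.706 to 0.947).

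ERF1 (AT3G23240, chromosome 3, 8295644 to 8296604, plus strand), which acts directly below the ethylene factor EIN3, was at 9.32 and 6.65 FPKM (Col-0), 5.52 and 3.43 (apc8-1) and 4.37 and 2.83 (nrpe1-12). Every mutant library was below both Col-0 libraries. In nrpe1-12 ERF1 fell by 0.97 (log2, SE 0.24, adjusted p = 0.0196). It did not pass once Col-0 replicate 1 was left out (adjusted p = 0.121), once nrpe1-12 library b was left out (adjusted p = 0.114), or with no filter on low values (adjusted p = 0.0767). In apc8-1 the difference was -0.73 (SE 0.24, adjusted p = 0.0528). That value passed with a replicate block (adjusted p = 0.00492) and under 6 further alternatives. Over all alternatives its adjusted p ran from 0.00492 to 0.260. The mutants did not differ from each other by the test (0.24, SE 0.24, adjusted p = 0.545).

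PDF1.2 (AT5G44420, chromosome 5, 17907069 to 17907598, minus strand), the reporter of the branch, was higher in nrpe1-12 and lower in apc8-1 than in Col-0. Each Col-0 library had 4.70 FPKM of it, with 2.61 and 1.48 in apc8-1, and 25.3 in each nrpe1-12 library. The 3 genotypes did not overlap. In nrpe1-12 PDF1.2 rose by 2.21 (log2, SE 0.17, adjusted p = 8.61e-05), which was the 35th largest increase among all tested loci. The estimated fragments were 91 and 74 in nrpe1-12 against 19 and 14 in Col-0, a ratio of 5.38 (95% exact interval 3.68 to 8.07 for counting error). In apc8-1 PDF1.2 fell by 0.93 (SE 0.17, adjusted p = 0.00414). This decrease rests on 9 and 5 fragments against 19 and 14, a ratio of 0.436 (interval 0.215 to 0.837). In a bulk sample fewer cells with the transcript and less transcript per cell cannot be told apart. The lower summed root markers of both mutants, mostly PYK10, and the higher summed shoot markers stand beside these values. Their part in these values was not tested.

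PDF1.3 (AT2G26010, chromosome 2, 11087348 to 11087944, plus strand), a close relative of PDF1.2, was at 4.29 and 2.90 FPKM (Col-0), 1.38 and 3.48 (apc8-1) and 14.1 and 14.2 (nrpe1-12). The nrpe1-12 libraries were far above the other 4, while Col-0 and apc8-1 overlapped. It rose by 1.74 in nrpe1-12 (SE 0.27, adjusted p = 0.00264), from 22 and 11 fragments to 64 and 53. Its difference in apc8-1 was -0.48 (SE 0.27, adjusted p = 0.234), and it was -0.93 (adjusted p = 0.0128) without apc8-1 replicate 2 but -0.02 (adjusted p = 0.953) without replicate 1, the lowest and highest adjusted p over all alternatives.

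PDF1.2c (AT5G44430, chromosome 5, 17908945 to 17909507, minus strand) was at 0.462 and 0.627 FPKM (Col-0), 0 and 0.275 (apc8-1) and 2.603 and 2.55 (nrpe1-12). It rose by 1.21 in nrpe1-12 (SE 0.18, adjusted p = 0.00210), from 2 and 2 estimated fragments to 10 and 8, with an interval of 1.60 to 19.7 for the ratio. PDF1.2c reached 1 FPKM in nrpe1-12 only, so it entered the test through the group in which it was high. Its difference in apc8-1, where it had 0 and 1 fragments, was -0.45 (adjusted p = 0.102).

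PDF1.2b (AT2G26020, chromosome 2, 11089250 to 11089597, plus strand) was at 4.44 and 2.45 FPKM (Col-0) and 4.88 and 4.95 (nrpe1-12), and was listed at 0 in both apc8-1 libraries. It was called lower in apc8-1 (adjusted p = 2.53e-04), and its fitted difference, which depends on the pseudocount, was -2.12 (SE 0.21) with 1 and -5.09 with 0.1. Its annotated transcript has 274 bases, of which 41 to 52 remained after the subtraction. The values stood for an estimated 4 and 1.45 fragments in Col-0, and 3 fragments over both apc8-1 libraries would amount to 1.98 FPKM. With 5 fragments in Col-0 the counting interval of the ratio reached 1.07, and with 6 it reached 0.836, so whether that interval spans 1 turns on a single fragment. In nrpe1-12 its difference was 0.45 (SE 0.21, adjusted p = 0.162), with 4 and 3 fragments, and it was 0.78 (adjusted p = 0.0346, in a range of 1.25e-04, for the summed paralogs, to 0.722 over all alternatives) without Col-0 replicate 1.

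PDF1.1 (AT1G75830, chromosome 1, 28472357 to 28472891, plus strand) was listed at 0 in 5 libraries and at 0.620 FPKM, an estimated 2 fragments, in apc8-1 replicate 2. It did not pass the filter and was not tested. A count of 3 fragments would have given 0.779 and 1.06 FPKM in the Col-0 libraries, the limit that a count of 0 allows.

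**Figure D2:**
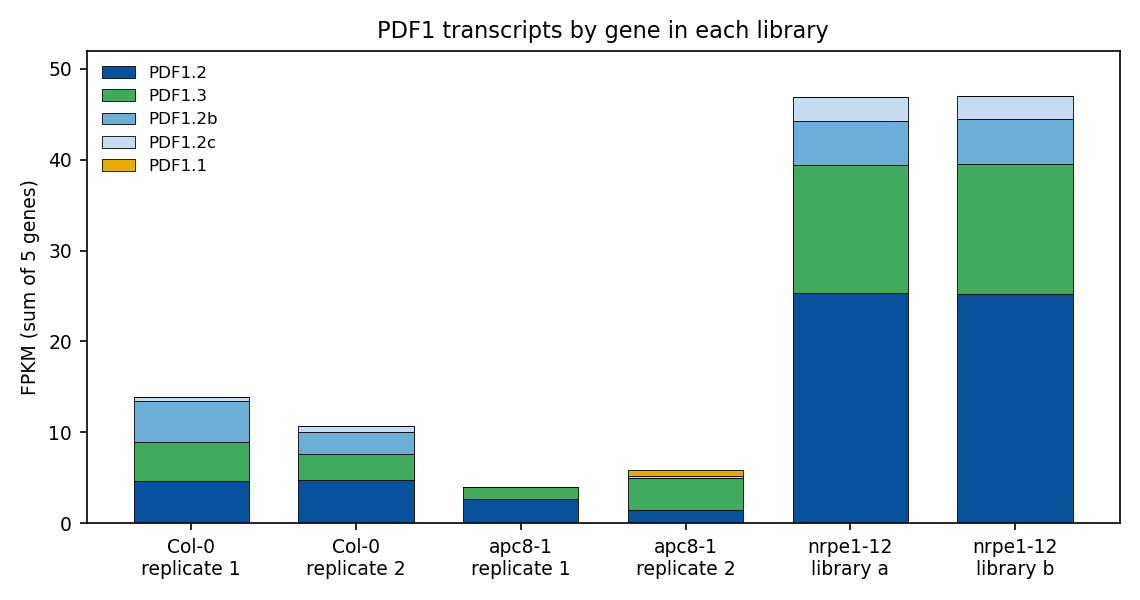
Stacked levels (FPKM, linear axis from 0) of the 5 PDF1 genes in each of the 6 libraries. The sums were 13.9 and 10.7 (Col-0), 3.995 and 5.85 (apc8-1), and 46.9 and 47.0 (nrpe1-12), where PDF1.2 and PDF1.3 made up most of the bar.

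Together the 5 PDF1 genes amounted to 12.3 ± 2.27 (Col-0), 4.92 ± 1.31 (apc8-1) and 47.0 ± 0.0666 FPKM (nrpe1-12, SD, n = 2). The nrpe1-12 sums rest mainly on 91 and 74 fragments of PDF1.2 and 64 and 53 of PDF1.3. Their counting error is larger than this SD, which is therefore no measure of precision. PDF1.2 made up 33.8 and 44.0% of the Col-0 sums, 65.4 and 25.2% of those of apc8-1, and 54.0 and 53.7% of those of nrpe1-12. The share of PDF1.2b was 32.0 and 23.0% in Col-0, from 4 and 1.45 estimated fragments, and 10.4 and 10.5% in nrpe1-12, from 4 and 3. PDF1.3 stayed between 27.2 and 34.6% in 5 libraries and made up 59.5% in apc8-1 replicate 2. The apc8-1 shares rest on 15 and 23 fragments in all and were not told apart from the others by any test. The PDF1 genes resemble each other in sequence, and the sources used here do not say how fragments that match several of them were assigned. The 18 values of PDF1.2, PDF1.2c and PDF1.3 lay within 0.162 of whole fragments. PDF1.2b was left out of this check, and its value in Col-0 replicate 2 came to 1.45 fragments, so the check does not settle the assignment. With PDF1.2, PDF1.2b and PDF1.2c summed into 1 locus, the differences were 1.81 in nrpe1-12 (SE 0.15, adjusted p = 1.25e-04) and -1.61 in apc8-1 (SE 0.15, adjusted p = 1.63e-04). In Col-0, PDF1.2b supplied 4.44 and 2.45 of the 9.60 and 7.78 FPKM of this sum, from the few fragments given above, and in apc8-1 it was listed at 0. The apc8-1 value thus leans on PDF1.2b, since PDF1.2 alone fell by 0.93.

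PR4 (AT3G04720, chromosome 3, 1285524 to 1286562, minus strand) was the most abundant of the 8 genes in all libraries and fell in both mutants. It was at 259 and 264 FPKM (Col-0), 100.4 and 95.1 (apc8-1) and 190 and 173 (nrpe1-12). The 3 genotypes did not overlap, with apc8-1 lowest. PR4 fell by 1.41 in apc8-1 (SE 0.06, adjusted p = 5.38e-06) and by 0.53 in nrpe1-12 (SE 0.06, adjusted p = 7.59e-04). It stood at ranks 242 to 249 of all loci (Col-0), 749 to 798 (apc8-1) and 375 to 414 (nrpe1-12). With 944 to 3023 fragments per library it is the best measured of the genes, and the counting interval of its ratio to Col-0 was 0.355 to 0.395 in apc8-1 and 0.669 to 0.729 in nrpe1-12. The level of PR4 was 18.6 and 24.7 times the summed PDF1 level for Col-0, 25.1 and 16.3 times for apc8-1, and 4.04 and 3.68 times for nrpe1-12.

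**Figure D3:**
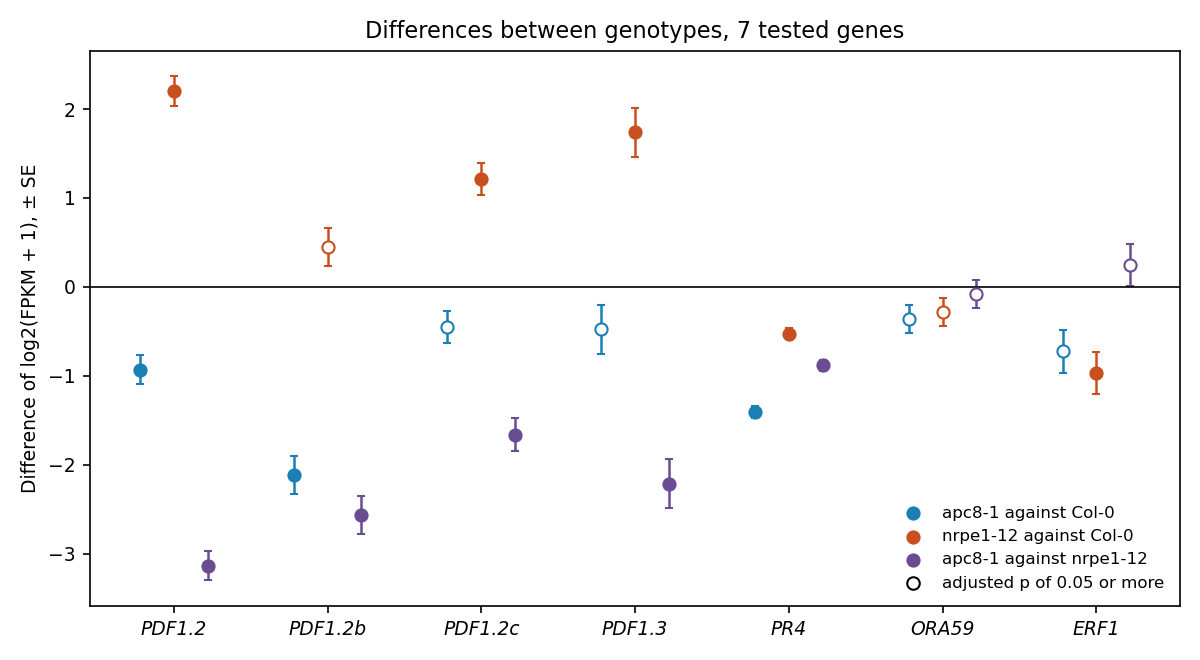
Difference of log2(FPKM + 1) with its SE (limma, 2 libraries per genotype) for the 7 tested genes in 3 comparisons; filled points have an adjusted p below 0.05. In nrpe1-12 against Col-0, PDF1.2, PDF1.2c and PDF1.3 are above 0 while PR4 and ERF1 are below, and in apc8-1 against Col-0 all 7 are below 0.

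In apc8-1 against Col-0, 3 of the 7 tested genes fell, namely PDF1.2, PDF1.2b and PR4, and none rose, while 30.2% of all tested loci were called, 16.1% as decreases. The number was 5 without apc8-1 replicate 2, where PDF1.3 and ORA59 were added on the strength of a lone apc8-1 library. All 7 differences were negative, with a median of -0.73 against 0.01 over all tested loci. In nrpe1-12 against Col-0, where 26.3% of loci were called, PDF1.2, PDF1.2c and PDF1.3 rose and PR4 and ERF1 fell, against 13.5% of all loci higher and 12.8% lower. PDF1.2c, which was tested only because it was high in nrpe1-12, is not to be read against these shares, and without it 2 of 6 genes rose and 2 fell. The number called was 3 without nrpe1-12 library b, a fit in which PDF1.2c was no longer tested and the ERF1 call was lost. These comparisons share the Col-0 libraries. The direct comparison of the mutants does not use Col-0 levels and called 18.7% of all loci, 7.26% as higher and 11.4% as lower in apc8-1. In it PDF1.2 was at -3.14 in apc8-1 relative to nrpe1-12 (log2, SE 0.17, adjusted p = 2.28e-05), the 14th largest decrease among tested loci, and PDF1.3 was at -2.22 (SE 0.27, adjusted p = 0.00128). PDF1.2b, PDF1.2c and PR4 were also called lower, with PR4 at -0.88 (SE 0.06, adjusted p = 9.53e-05), and ORA59 and ERF1 were not called. PDF1.2c entered this comparison too through its nrpe1-12 level alone, so its call is not to be read against these shares.

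The order of the levels changed with the genotype. The place of PDF1.2b in it rests on few estimated fragments, 4 and 3 in nrpe1-12, where ERF1 had 54 and 29. In Col-0 it ran from PR4 over ORA59, ERF1 and PDF1.2 to PDF1.3 and PDF1.2b, which overlapped, and on to PDF1.2c and PDF1.1. In nrpe1-12 PDF1.2 came second, at ranks 3502 and 3559 of all loci in place of 11849 and 11904 in Col-0, followed by ORA59 and PDF1.3, which overlapped, then PDF1.2b, ERF1 and PDF1.2c. In apc8-1 PR4 and ORA59 kept the first places, and ERF1, PDF1.3 and PDF1.2 followed, with overlap between ERF1 and PDF1.3 and between PDF1.3 and PDF1.2.

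A feature that the choice of genes did not use is their position. PDF1.3 and PDF1.2b lie next to each other on the plus strand of chromosome 2, 1305 bases apart, and PDF1.2 and PDF1.2c on the minus strand of chromosome 5, 1346 bases apart. The 3 loci on each side of a pair, chosen after the values had been seen and with transposable element genes passed over, gave no increase that passed the test in nrpe1-12. On chromosome 2, BRIZ2 had a difference of 0.30 (adjusted p = 0.0780) and AT2G26030 one of 0.02 (adjusted p = 0.918), while AT2G25980 fell by 0.94 (adjusted p = 0.0108). On chromosome 5, AT5G44440, beside PDF1.2c, fell by 0.99 (adjusted p = 0.00332), and AT5G44450 had 0.22 (adjusted p = 0.179). AT2G25980 and AT5G44440 reached 1 FPKM in Col-0 only, so they entered the test through the group in which they were high. Of the 12 flanking loci 5 were not tested.

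**Figure D4:**
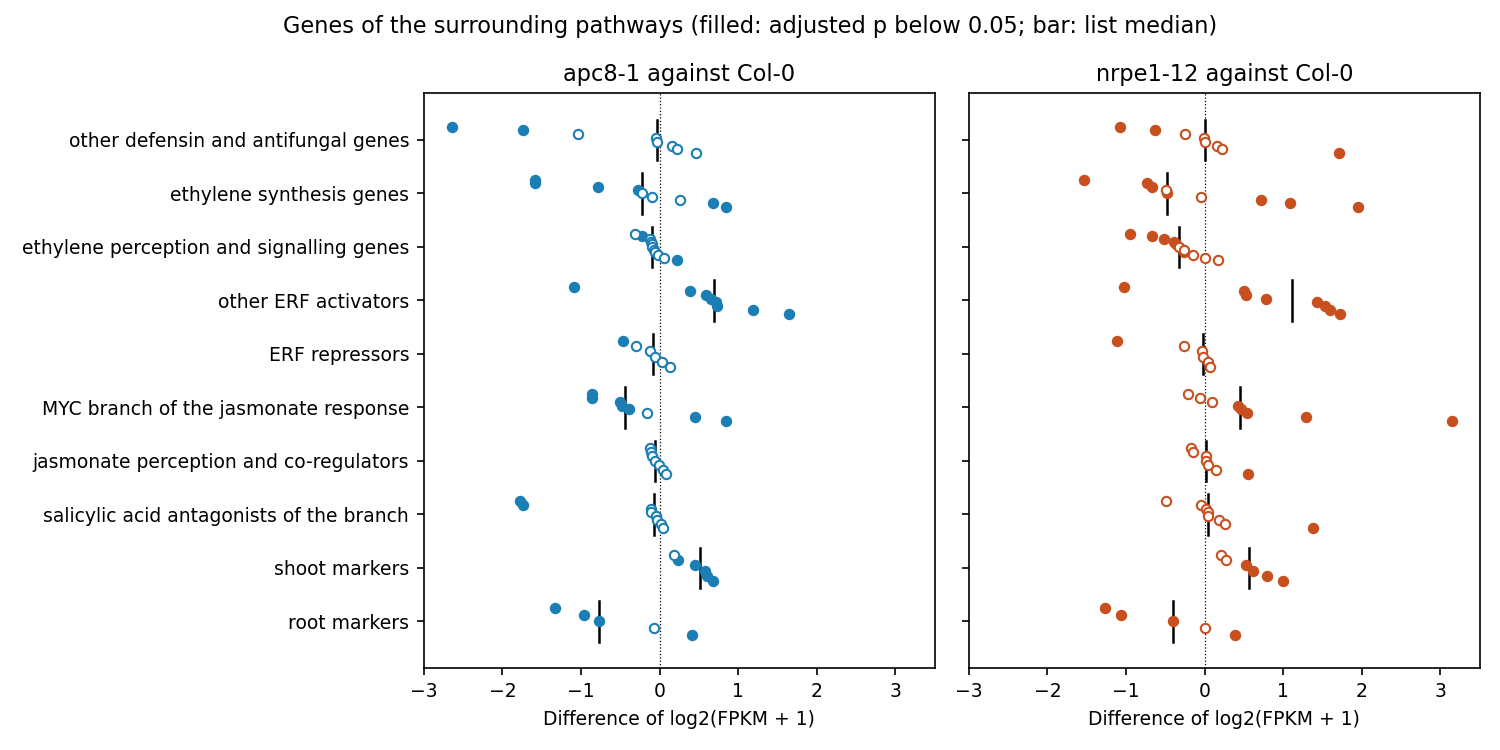
Difference of log2(FPKM + 1) from Col-0 for each tested gene of 8 pathway lists and 2 organ marker lists, in apc8-1 (left) and nrpe1-12 (right); filled points have an adjusted p below 0.05 and bars are list medians. Of the other ERF activators 7 of 8 lay above 0 in both mutants, and VSP2 in the MYC branch had the largest increase shown, 3.14 in nrpe1-12.

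Genes around the branch were read from 8 lists with 73 genes. Among the other defensin and antifungal genes, 2 of 8 tested fell in apc8-1 and none rose (median -0.03), against 16.1% of all loci lower and 14.1% higher, although 2 rose without Col-0 replicate 2. OSM34, an osmotin-like protein gene, was at 56.4 and 64.0 FPKM (Col-0), 8.91 and 8.76 (apc8-1) and 68.3 and 65.9 (nrpe1-12), and fell by 2.63 in apc8-1 (adjusted p = 1.06e-06). PR3, which encodes a basic chitinase and like PR4 responds to ethylene, fell by 1.74 in apc8-1 (adjusted p = 1.78e-04) and by 0.64 in nrpe1-12 (adjusted p = 0.0228), where it no longer passed with either Col-0 library or nrpe1-12 library b left out, or with no filter (adjusted p = 0.0743 to 0.0988). PDF1.4, a defensin gene outside the 8, was at 0.724 and 2.296 FPKM (Col-0), 1.99 and 2.59 (apc8-1), and 5.99 and 7.67 (nrpe1-12), and rose in nrpe1-12 by 1.71 (adjusted p = 0.00332). PDF2.2 fell by 1.07 in nrpe1-12 (adjusted p = 0.0172), a call that was lost without either nrpe1-12 library (adjusted p = 0.0515 and 0.0935) or without the filter (adjusted p = 0.0740). PDF2.4 and PDF2.6 were listed at 0 in all libraries.

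The ERF activators other than ORA59 and ERF1 were higher in both mutants. In each, 7 of 8 tested genes rose and 1 fell, against 14.1% of all loci higher in apc8-1 and 13.5% in nrpe1-12, and these counts were the same under every scaling tried and without each library. The medians were 0.69 in apc8-1 and 1.11 in nrpe1-12. The list was chosen with earlier results of these data known, so its counts are not an independent test. ERF104, which is released from a MAP kinase on perception of bacterial flagellin, was at 46.7 and 52.6 FPKM (Col-0), 87.0 and 78.9 (apc8-1) and 158 and 174 (nrpe1-12), an increase of 0.73 and 1.72 (adjusted p = 5.01e-04 and 1.38e-05). ERF6, a MAP kinase substrate that can activate PDF1.2, rose by 1.19 and 1.54 (adjusted p = 6.62e-05 and 3.01e-05). ORA47, a regulator of jasmonate synthesis genes, rose by 1.65 and 1.43 (adjusted p = 2.37e-05 and 6.58e-05). ERF105 rose by 1.60 in nrpe1-12 (adjusted p = 1.71e-05). ERF15, the member that fell, was at 15.9 and 14.7 FPKM (Col-0), 6.65 and 6.74 (apc8-1) and 7.52 and 6.56 (nrpe1-12), and its decrease in apc8-1 was -1.08 (adjusted p = 1.74e-04). ERF96 was listed at 0 throughout, and ERF14, known to act upstream of PDF1.2, was at or below 0.347 FPKM.

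Among the 6 ERF repressors, of which ERF4 and ERF9 are known to hold down PDF1.2, 1 fell in each mutant and none rose, near the share of all loci called lower (16.1% in apc8-1 and 12.8% in nrpe1-12). ERF9 was at 4.06 and 3.42 FPKM (Col-0), 2.61 and 3.08 (apc8-1) and 0.996 and 1.37 (nrpe1-12), and fell by 1.12 in nrpe1-12 (adjusted p = 0.00140). ERF4 lay between 7.20 and 7.99 FPKM in all 6 libraries. ERF8 fell by 0.47 in apc8-1 (adjusted p = 0.0337), but not with either Col-0 library or apc8-1 replicate 1 left out, or with no filter (adjusted p = 0.0509 to 0.190).

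Of 9 tested ethylene synthesis genes, 2 were called higher and 4 lower in apc8-1 (1 and 3 without either Col-0 library) and 3 higher and 4 lower in nrpe1-12 (2 and 3 without Col-0 replicate 1), against 14.1 and 16.1% of all loci in apc8-1 and 13.5 and 12.8% in nrpe1-12. The calls of ACS11 in both mutants and of ACS8 in nrpe1-12 are increases of genes that reached 1 FPKM in mutant libraries only, so they had to be high there to be tested. ACS6, an ACC synthase gene of stress-induced ethylene, was at 11.0 and 11.2 FPKM (Col-0), 17.3 and 19.7 (apc8-1) and 43.9 and 47.5 (nrpe1-12), and rose by 0.68 and 1.95 (adjusted p = 7.97e-04 and 1.00e-05). ACS7 fell by 1.58 in apc8-1 (adjusted p = 1.21e-04) and the ACC oxidase gene ACO5 by 1.59 in apc8-1 and 1.54 in nrpe1-12 (adjusted p = 1.23e-04 and 1.87e-04). In ethylene perception and signalling, 6 of 11 genes fell in nrpe1-12 and none rose (median -0.32), against 12.8% of all loci. The count was 3 without Col-0 replicate 1, 4 without Col-0 replicate 2 and 4 without nrpe1-12 library a. The receptor gene ETR2, itself induced by ethylene, fell from 16.9 and 16.9 to 7.29 and 9.33 FPKM (difference -0.95, adjusted p = 6.26e-04). EBF2, which encodes an F-box protein that removes EIN3 and is induced by ethylene, fell by 0.67 (adjusted p = 2.60e-04), and CTR1, the kinase that blocks the pathway in air, by 0.52 (adjusted p = 0.00331). EIN3, which activates ERF1, stayed at 69.1 to 77.1 FPKM in all libraries. In apc8-1 the calls were EIL1 (0.22, adjusted p = 0.0290) and EBF2 (-0.22, adjusted p = 0.0358), and with either Col-0 library or apc8-1 replicate 1 left out neither was called (adjusted p = 0.0542 to 0.224). With a replicate block their adjusted p were 0.0607 and 0.0766.

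In the MYC branch of the jasmonate response 2 of 8 genes rose and 5 fell in apc8-1, and 5 rose and none fell in nrpe1-12, against 14.1% higher and 16.1% lower of all loci in apc8-1 and 13.5 and 12.8% in nrpe1-12. Of the nrpe1-12 increases, 1 was lost whichever library was left out. It was also lost with no filter (adjusted p = 0.0605) and with organelle and ribosomal RNA genes set aside (adjusted p = 0.0632). A fit of only Col-0 and nrpe1-12 lost it as well (adjusted p = 0.0536). The apc8-1 decreases numbered 3 without Col-0 replicate 2, and 1 gene fell in nrpe1-12 under quantile normalization or with organelle and ribosomal RNA genes set aside. VSP2, a vegetative storage protein gene and the usual reporter of that branch, was at 5.87 and 6.73 FPKM (Col-0), 4.34 and 4.79 (apc8-1) and 62.7 and 64.1 (nrpe1-12), where it rose by 3.14 (adjusted p = 1.65e-06). PDF1.2 and VSP2 were thus both highest in nrpe1-12, by 2.21 and 3.14 over Col-0. MYC2 rose in both mutants, by 0.45 in apc8-1 and 0.54 in nrpe1-12 (adjusted p = 0.00389 and 0.00190). LOX2, a jasmonate synthesis gene, fell by 0.86 in apc8-1 and rose by 0.43 in nrpe1-12 (adjusted p = 1.21e-04 and 0.00418). Genes of jasmonate perception and its co-regulators gave no call among 7 in apc8-1 by limma, none at an unadjusted p below 0.05 and none under any alternative. In nrpe1-12 the call was JAZ1, which rose by 0.56 (adjusted p = 7.86e-04), and 2 genes of the list were also called lower with organelle and ribosomal RNA genes set aside. The receptor gene COI1 lay between 16.4 and 17.9 FPKM in all libraries.

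Among the salicylic acid genes listed as antagonists of the branch, 2 of 8 fell in apc8-1 and 1 rose in nrpe1-12. These counts lie near the shares over all loci of 16.1% lower and 13.5% higher. WRKY70, a salicylic acid induced factor that represses PDF1.2, was at 26.7 and 32.4 FPKM (Col-0), 29.6 and 29.9 (apc8-1) and 79.4 and 77.2 (nrpe1-12), where it rose by 1.38 (adjusted p = 4.69e-05). In nrpe1-12 the repressor gene WRKY70 and the defensin gene PDF1.2 were thus both above every Col-0 library. GRX480, a glutaredoxin gene whose product binds TGA factors and lowers ORA59 and PDF1.2, was at 6.17 and 5.47 FPKM (Col-0), 0.997 and 0.995 (apc8-1) and 4.45 and 8.10 (nrpe1-12), and fell by 1.77 in apc8-1 (adjusted p = 7.37e-04). WRKY51 fell by 1.74 in apc8-1 (adjusted p = 0.00121).

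The profiles most like those of the branch were read from Pearson's r of log2(FPKM + 1) over the 6 libraries, among 1316 loci with an SD of at least 0.5. The r describes the pattern of 3 genotypes with shared libraries and carries no test. For the summed PDF1.2, PDF1.2b and PDF1.2c the 5 closest were ACD6 (r = 0.999), AT2G29500 (0.998), GBSS1 (0.997), MSRB7 (0.995) and JAL23 (0.994). ACD6, an ankyrin repeat protein gene of salicylic acid defence, was at 20.5 and 19.7 FPKM (Col-0), 10.7 and 9.01 (apc8-1) and 43.1 and 44.3 (nrpe1-12), the same order of genotypes as PDF1.2. For ORA59, whose own log2 SD over libraries was 0.24, they were ATCG01210 (r = 0.972), AT3G21680 (0.927), AT5G57480 (0.901), AT3G57950 (0.893) and RALF1 (0.886). ATCG01210 is a chloroplast ribosomal RNA locus at 36.9 and 14.0 FPKM (Col-0) and 0 and 8.27 (apc8-1), in libraries depleted of ribosomal RNA. The 8 genes had been left out of the candidates beforehand, and no locus of the pathway lists was among the 10.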

How the data were processed

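The authors' deposited table gives FPKM per locus for each library. The submitters' processing notes name the TAIR10 build, TopHat2 2.0.13, Cufflinks 2.2.1 and Cuffnorm 2.2.1. Per the labels' protocols, total RNA was depleted of ribosomal RNA. The strand setting of the counting and the fragments behind the per-million scaling are not given in the sources used here. A second deposited sheet lists 1 exon per locus with its start and end, another kind of value, used for the class code. Replicate numbers could be read for Col-0 and apc8-1. The nrpe1-12 columns share a single header, so their libraries are named a and b by table order.

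Values were transformed to log2(FPKM + 1), so differences of low genes are understated. The 17802 loci that reached 1 FPKM in 2 or more libraries were fitted with limma 3.58.1 in R 4.3.3 (eBayes with an intensity trend, 1 fit of 6 libraries, 3 residual and 4.93 prior degrees of freedom), and p-values were adjusted over all of them by Benjamini-Hochberg. The procedure was tested on simulated data. With 2 libraries a side, exact permutation can give no p under 0.333. The numbers of fragments are estimates from the steps between low values, and their intervals (95%, exact Clopper-Pearson on the share of fragments) cover counting error only, not the spread between libraries. The members and gene lists were chosen with earlier results of these data known. Of the 89 genes in the 10 other lists all were in the table and 76 were tested, and all list genes and members matched a RefSeq locus tag. Named were all members, up to 4 called genes per list and comparison by p among those with no overlap between libraries, and 5 loci for each likeness reference; 1 gene that this rule names is not reported here. Genes named at 0 or as stable (EIN3, ERF4, COI1, EXPA7, COBL9, RHD6, PDF2.4, PDF2.6, ERF14, ERF96) and the flanking loci were chosen after their values were seen. Results were recomputed with pseudocounts of 0.1 and 0.5, without a filter, with a filter of 5 FPKM, 3 other scalings, fits of 2 genotypes, each library left out, a replicate block and summed PDF1.2 paralogs.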

Additional observations from a re-analysis of the deposited data

How the results depend on the processing

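The number of the 8 genes called stayed at 3 to 4 in apc8-1 against Col-0, 4 to 5 in nrpe1-12 against Col-0 and 5 in apc8-1 against nrpe1-12 over the settings that keep all libraries, except that a filter of 5 FPKM left 3 in apc8-1 against nrpe1-12, since only 5 of the genes were then tested. With a library left out the numbers were 3 to 5, 3 to 5 and 4 to 5. Those of both comparisons with nrpe1-12 include PDF1.2c wherever it was tested. Of the single values under an alternative, 278 kept their direction and side of the threshold, 3 lost it (ERF1 in nrpe1-12), 12 gained it and 3 changed sign. The changes of sign were in apc8-1 against nrpe1-12 and were not called: ORA59 was 0.15 without apc8-1 replicate 1 and 0.07 without nrpe1-12 library a, in a range of -0.30 to 0.15, and ERF1 was -0.035 without apc8-1 replicate 1, in a range of -0.035 to 0.52. The increases of PDF1.2 and PDF1.3 in nrpe1-12 stayed called in every fit that tested them, at 2.0996 to 2.404 and 1.52 to 1.98, beside 1.81 for the summed PDF1.2 genes. So did the decreases of PR4, at -1.50 to -1.37 in apc8-1 and -0.65 to -0.46 in nrpe1-12. PDF1.2c ran from 1.14 to 2.07 and was called wherever tested, but under the filter only its nrpe1-12 level let it be tested. With no filter its difference was 1.21 (adjusted p = 0.00554), and with a pseudocount of 0.1 it was 2.07 (adjusted p = 0.0466). Setting aside organelle and ribosomal RNA genes moved the median over all loci to -0.07 in apc8-1 and -0.12 in nrpe1-12, and increases then made up 32.1 and 31.4% of the calls in place of 46.6 and 51.4%. Over all loci the calls fell from 5384 to 3252 and 3348 without Col-0 replicate 1 or 2 in apc8-1, from 4679 to 2710 and 2787 in nrpe1-12, and in apc8-1 against nrpe1-12 from 3327 to 2042 and 1822 without nrpe1-12 library a or b. Same-numbered libraries of Col-0 and apc8-1 did not deviate together (r = -0.06 over loci). The labels state no pairing, and with 2 libraries per genotype this r cannot decide whether there was one. The replicate block called 4 of the 8 genes in apc8-1 against Col-0 and 4928 loci in all. It could not be fitted for nrpe1-12, whose columns carry no number. PDF1.1, PDF1.2b and PDF1.2c had at most 10 estimated fragments in a library, and PDF1.2b is also short.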
